A study of Mus musculus with 32 samples.

Results

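The transcription factor gene Myc and 33 genes that build ribosomes, 34 genes in all, were followed by RNA sequencing in mouse regulatory T cells (Tregs). The 34 were taken by gene name from the 54087 genes of the deposited tables, and all 34 were among the 14313 genes with enough reads to be tested. By role they comprise Myc, 4 genes of RNA polymerase I and its activator, 4 of the box C/D snoRNPs and their assembly, 3 of the box H/ACA snoRNPs, 12 of the small subunit processome and 40S maturation, 8 of 60S assembly and 2 nucleolar chaperones. The data are 32 libraries in 11 groups, from Tregs of C57BL/6 mice aged 2.5 months that carry the Foxp3-IRES-GFP knock-in, in which cells that transcribe Foxp3 fluoresce green and can be purified. All cultured groups received mouse IL-2 (10 ng/ml) and were stimulated through CD3 and CD28 with coated antibodies, for 18 h or for 36 h.

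At each time 1 of 4 agents that engage costimulatory receptors of the TNF receptor superfamily was added to the agonist cultures. These were the TNFR2 agonist STAR2, also named TNC-sc(mu)TNF80, at 12 ng/ml, the 4-1BB antibody 3H3 at 10 µg/ml, the DR3 ligand TL1A at 12 ng/ml, and OX40L at 100 ng/ml. The control cultures of each time had no agonist, and the resting Tregs were not cultured. Every group held 3 libraries except the OX40 agonist at 18 h, which held 2. No group was cultured without stimulation, so effects of CD3 and CD28 antibodies, IL-2 and culture itself cannot be told apart. The 4 agents are of different kinds at different doses, and each was used at 1 dose. The labels do not say whether the libraries of a group came from separate mice or cultures, so p-values measure only the spread between these libraries, which may be technical.

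MYC binds DNA together with its partner MAX and drives genes for growth, and ribosome production is among its best known outputs. RNA polymerase I transcribes the long ribosomal RNA precursor in the nucleolus, small nucleolar RNPs (snoRNPs) modify it, and large assemblies of processing factors cut it and fold it into the small (40S) and large (60S) ribosomal subunits. In T cells, MYC is induced by antigen receptor signals and is required for the growth that precedes division, and a resting lymphocyte has small nucleoli.

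The short promoter element that MYC and MAX bind best is the E-box CACGTG, which reads the same on both strands. RefSeq promoter windows of the GRCm38.p6 build, from 250 bases before to 50 after the start site, were found for 27 of the 34 members, and not for Rrs1, Tcof1, Rrp12, Myc, Fbl, Npm1 and Bop1. The letters CACGTG stood in at least 1 window of 5 of these 27 genes (18.5%), against 1096 of the 9156 tested genes with a window (11.97%) and 7.15% of the 32851 windows of the table. The 5 stretches are shown because they hold that element, in capitals, next to the start site. Each reads along the gene's own strand. All 34 members rose on stimulation, whether or not a match was found. A match describes these letters only.
Nop2, chr6:125131773-125131878, plus strand, E-box 60 bases before the start site: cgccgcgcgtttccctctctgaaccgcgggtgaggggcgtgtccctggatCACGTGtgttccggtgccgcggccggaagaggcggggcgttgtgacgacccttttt
Pes1, chr11:3963965-3963994, plus strand, E-box 2 bases after the start site: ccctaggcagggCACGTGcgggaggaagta
Wdr43, chr17:71616220-71616249, plus strand, E-box 17 bases after the start site: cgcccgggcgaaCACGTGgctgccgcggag
Ltv1, chr10:13193092-13193121, minus strand, E-box 28 bases after the start site: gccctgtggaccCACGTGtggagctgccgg
Utp20, chr10:88826765-88826789, minus strand, E-box 37 bases after the start site: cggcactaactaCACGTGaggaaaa

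The members lie on 17 chromosomes. Myc is at chr15:61985391-61990374 on the plus strand, and Ncl at chr1:86344719-86359400 on the minus strand (mm10, GENCODE M21). Several members carry snoRNA genes inside their own transcribed region, on the same strand. Nop56 holds 5 of them, among them Snord57 and Snord110. Nop58 holds 4, Ncl, Wdr43 and Gnl3 hold 3 each, and Dkc1 holds 1. These 6 host genes make up 17.6% of the members, against 223 of 12072 tested protein-coding genes (1.85%).

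Depth, as the sum of expected counts, was 13634395 to 38083925 in cultured libraries and 11880270 to 15160995 in resting ones. The Treg markers Foxp3, Il2ra, Ctla4, Ikzf2, Cd4 and Cd3e were all detected in every group, with a summed level, in read counts scaled to library size (CPM), of 5866 to 5902 CPM in 18 h controls and 3406 to 3623 CPM in resting cells. One transcript annotated at a ribosomal RNA locus on chromosome 17 differed widely between libraries. It took 1406.7 to 11857.1 CPM in 18 h agonist libraries and 8113.9 to 26033.7 CPM in 18 h controls, and over 10000 CPM in 6 libraries in all. Higher and lower below always refer to shares of the counted RNA: these are bulk samples, in which fewer cells of a type and less RNA per cell cannot be told apart.

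Between genes, levels are compared in TPM, transcript numbers corrected for length and scaled to the library, and in time order. Npm1, which encodes the abundant nucleolar chaperone nucleophosmin, averaged 1090 TPM in resting cells, 4103 TPM in 18 h controls and 4546 TPM in 36 h controls. Ncl, encoding nucleolin, which binds nascent ribosomal RNA, was next with 441.8, 1870 and 1930 TPM in the same order of groups. Myc itself averaged 142.1, 627.5 and 404.1 TPM, the fifth highest of the 34 in 18 h controls, after Nop58 at 860.6 TPM and Nop56 at 833.1 TPM. At the low end, Bysl (bystin, a 40S assembly factor) averaged 9.04, 53.3 and 44.3 TPM. Together the 34 genes held 0.3645% ± 0.0087 of all TPM in resting cells, 1.36% ± 0.0165 in 18 h controls and 1.301% ± 0.0377 in 36 h controls (SD, n = 3 each). All 34 members had their lowest group mean in resting cells, and 32 had their highest in a group at 18 h. The same counts were not made over all tested genes.

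Every member was higher after 18 h of stimulation than at rest. Myc stood at 738.7, 741.2 and 746.9 CPM in 18 h controls, against 141.9, 140.2 and 145.4 CPM in resting cells. The 3 libraries of each group lay within a few percent of each other and the groups were far apart. The log2 fold change was 2.38 ± 0.04 (SE), a 5.21-fold higher level (adjusted p = 7.63e-45, edgeR quasi-likelihood test with Benjamini-Hochberg adjustment over all tested genes, as for every adjusted p below). All 34 members were called higher at an adjusted p below 0.05, where 40.9% of all tested genes were and 40.1% were called lower. At least 2-fold higher were 33 members, against 19.9% of all tested genes, and Tcof1 was the exception. The median log2 fold change of the members was 2.12, with a range of 0.69 to 2.81, and that of all tested genes was -0.01. In each of the 34, all 18 h control libraries were above all resting libraries. How many of all tested genes were separated in this way was not counted.

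The largest rises belonged to genes of different steps. Nop16, a 60S assembly factor, had 120.8, 125.8 and 129.3 CPM in 18 h controls, against 17.93, 18.14 and 17.28 CPM in resting cells. Its log2 fold change of 2.81 ± 0.05 was the highest of the list (adjusted p = 4.48e-41). Nhp2, a core protein of the H/ACA snoRNPs that guide pseudouridylation, followed at 2.75 ± 0.05, and Bysl at 2.71 ± 0.06 (adjusted p = 1.05e-42 and 1.89e-39). The smallest rises were those of Tcof1, Nob1 and Ddx10. Tcof1 encodes treacle, which helps RNA polymerase I start at ribosomal DNA. It had 390.2, 391.7 and 391.7 CPM in 18 h controls, against 244.3, 224.2 and 258.8 CPM in resting cells, and rose by 0.69 ± 0.04 on the log2 scale (adjusted p = 5.56e-21). Nob1, the nuclease that makes the final cut at the end of 18S ribosomal RNA, rose by 1.05 ± 0.05, and the helicase gene Ddx10 by 1.14 ± 0.05 (adjusted p = 4.82e-25 and 4.9e-26).

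By role, the 3 box H/ACA genes (Dkc1, the pseudouridine synthase dyskerin, Gar1 and Nhp2) had a median log2 fold change of 2.36. Ncl and Npm1 had a median of 2.20. Ncl stood at 3753, 3917 and 3929 CPM in 18 h controls, against 727.1, 831.7 and 768.1 CPM in resting cells. The median was 2.17 for the box C/D group, which holds the methyltransferase gene Fbl, the scaffold genes Nop56 and Nop58 and the snoRNP chaperone gene Nolc1. Nop58 rose most in it, by 2.51 ± 0.04 on the log2 scale (adjusted p = 2.84e-45). For the 8 genes of 60S assembly the median was 2.16. They comprise Pes1, Bop1 and Wdr12, whose products form the PeBoW complex, and Nop2 (a ribosomal RNA methyltransferase), Nop16, Rrs1, Rrp1b and Gnl3 (nucleostemin).

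The 12 genes of the small subunit processome and 40S maturation had a median of 2.02. Heatr1, Utp15 and Wdr43 act early in the processome, Rrp9 is a protein of the U3 snoRNP, Rrp12 and Ltv1 belong to late 40S particles, and Ddx21 encodes a nucleolar helicase. The median was lowest, at 1.34, for the RNA polymerase I group. In it Polr1b, the second largest subunit, rose by 2.17 ± 0.04, whereas Polr1a, the largest subunit, rose by 1.42 ± 0.04 and Polr1c, which RNA polymerase III shares, by 1.26 ± 0.06.

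**Figure D1:**
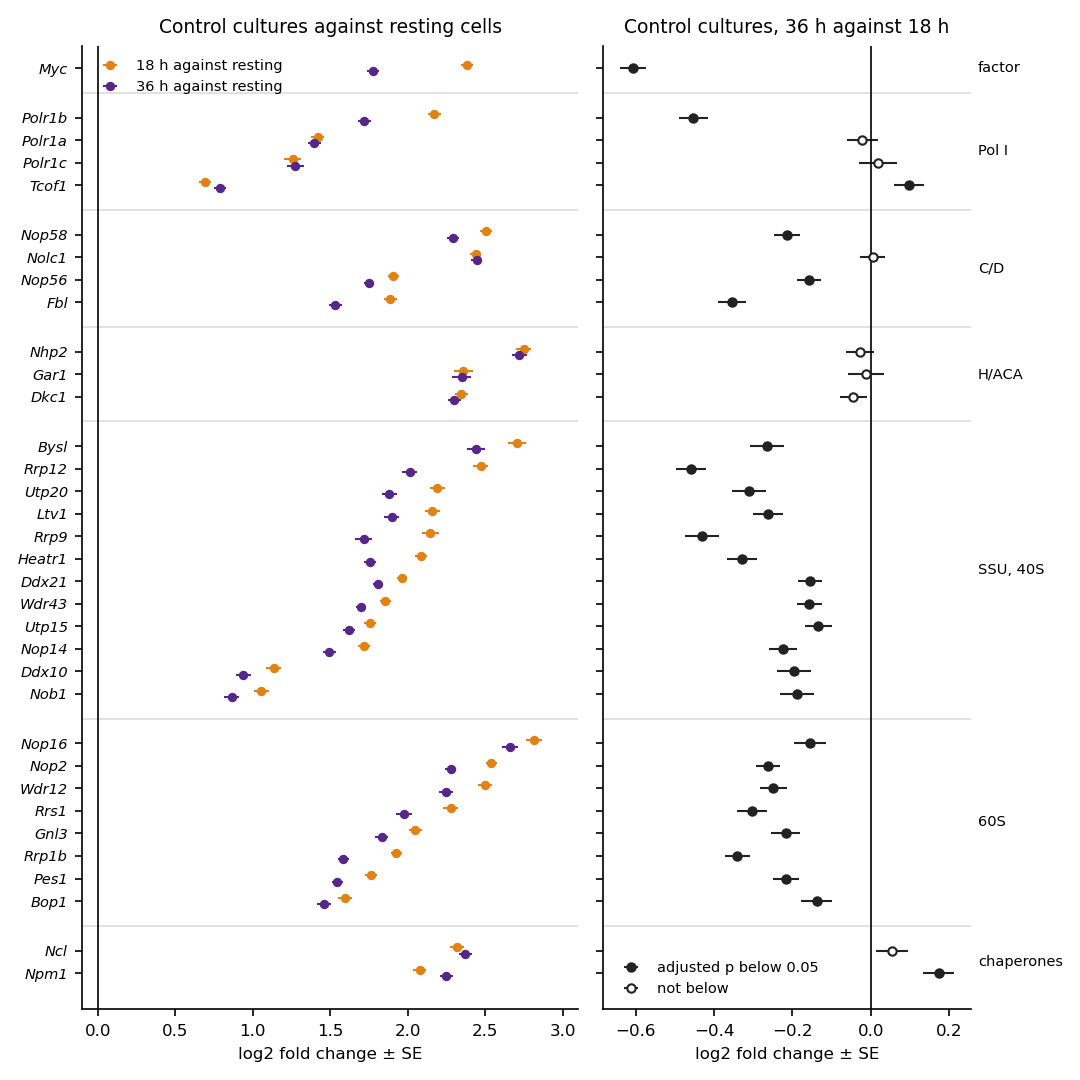
Log2 fold change ± SE of each of the 34 members, ordered by role from top to bottom (SSU, small subunit processome). Left, control cultures at 18 h (orange) and 36 h (purple) against resting cells, where all points lie above 0 and run from Tcof1 at the low end to Nop16 and Nhp2; right, 36 h controls against 18 h controls, filled where the adjusted p is below 0.05, with Myc farthest to the left at -0.61.

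Other genes of the same machinery, outside the 34, were examined in 18 h controls against resting cells. In that comparison 40.9% of all tested genes were higher and 40.1% lower. All 47 other factors of the small subunit processome and 40S assembly were called higher, with a median log2 fold change of 1.44. Pno1, which acts with Nob1, rose most, by 3.14 ± 0.05, to 168.9 CPM in 18 h controls, against 19.14 CPM in resting cells. The kinase gene Riok3 rose least, by 0.20 ± 0.04. Of 52 other 60S factors, 49 were higher and 3 lower (median 1.497). Mrto4 rose by 2.69 ± 0.05, and Gltscr2, known in other nomenclature as Nop53, fell by 0.51 ± 0.03 on the log2 scale. All 14 other snoRNP genes were higher, led by the H/ACA assembly genes Shq1 (2.35 ± 0.08) and Naf1 (2.35 ± 0.06).

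The rest of the RNA polymerase I machinery was less uniform, with 15 of 18 genes higher and 3 lower (median 1.08). Cd3eap, a polymerase I subunit, rose by 2.28 ± 0.06 and Polr2h, a subunit of all nuclear RNA polymerases, by 1.89 ± 0.08. The termination factor gene Ttf1 fell by 0.57 ± 0.06, and Taf1c of the promoter selectivity factor fell by 0.30 ± 0.06. Among 10 noncoding snoRNA host genes, 9 were higher and Snhg8 was lower, at -0.86 ± 0.07. Snhg4 rose most, by 3.96 ± 0.16, to 54.98 CPM in 18 h controls, against 3.516 CPM in resting cells. Of 30 well known MYC targets outside ribosome assembly, all 30 were higher, with a median of 2.20. Hk2, a hexokinase of glycolysis, led them at 4.24 ± 0.06, followed by Srm (spermidine synthase) at 3.46 ± 0.05.

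Of 16 tested genes of the MYC network, 6 were called higher and 6 lower, near the shares of all tested genes (40.9% higher and 40.1% lower), and the median log2 fold change was 0.04. Max rose by 0.52 ± 0.04, to 153.5 ± 2.23 CPM in 18 h controls, against 106.6 ± 5.52 CPM in resting cells (SD, n = 3 each). Mxd4, a member of the MXD family that competes with MYC for MAX and represses, had the largest fall, with 39.63 ± 0.817 CPM in 18 h controls, against 389.5 ± 8.26 CPM in resting cells (SD, n = 3 each). Its log2 fold change was -3.30 ± 0.05 (adjusted p = 6.04e-45). Mlxip, a glucose-responsive relative in the network, fell by 1.39 ± 0.04. Mnt, another MAX-binding repressor named here after its values were seen, fell by 0.55 ± 0.05.

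Markers of other cells moved with this comparison. The 6 B cell markers were all lower after stimulation, with a summed level of 292.8 to 315.5 CPM in 18 h controls and 711.7 to 753.1 CPM in resting cells, and none was at 0 in either group. The 8 myeloid and dendritic markers summed to 0.3255 to 1.231 CPM in 18 h controls, where 2 were at 0, and to 8.682 to 9.86 CPM in resting cells. The CD8 T and NK cell markers summed to 12.31 to 12.53 CPM in 18 h controls and 16.9 to 18.12 CPM in resting cells, and the erythroid markers to 0.4475 to 0.8137 CPM in 18 h controls and 1.899 to 4.767 CPM in resting cells. The part of these cells in the result was not tested.

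At 36 h all 34 members were again higher than in resting cells, where 42.4% of all tested genes were called higher and 42.1% lower. At least 2-fold higher were 31 members, against 23% of all tested genes; the others were Tcof1 (0.79 ± 0.04), Nob1 (0.86 ± 0.05) and Ddx10 (0.94 ± 0.05). The median log2 fold change was 1.79. Myc had 497.2, 479.6 and 485.8 CPM in 36 h controls, against 141.9, 140.2 and 145.4 CPM in resting cells, a log2 fold change of 1.78 ± 0.04 (adjusted p = 4.28e-40). The groups did not overlap. Nhp2 (2.72 ± 0.05), Nop16 (2.66 ± 0.05) and Nolc1 (2.44 ± 0.04) rose most. This comparison and the one at 18 h share the resting libraries.

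Between 18 h and 36 h most members fell. In 36 h controls against 18 h controls, 25 members were called lower and 2 higher, where 26.6% of all tested genes were lower and 25.6% higher. The members' median was -0.21 on the log2 scale and that of all tested genes -0.02. Myc fell most, to 497.2, 479.6 and 485.8 CPM at 36 h, against 738.7, 741.2 and 746.9 CPM at 18 h, a log2 fold change of -0.61 ± 0.03 (adjusted p = 8.19e-21). No 36 h library came near an 18 h library. Rrp12 (-0.46 ± 0.04), Polr1b (-0.45 ± 0.04) and Rrp9 (-0.43 ± 0.04) followed, with adjusted p of 2.45e-14, 8.17e-15 and 1.12e-11. Treg markers summed to 4900 to 5039 CPM at 36 h and 5866 to 5902 CPM at 18 h. CD8 T and NK cell markers summed to 34.67 to 35.92 CPM at 36 h and 12.31 to 12.53 CPM at 18 h. B cell markers summed to 267 to 281.3 CPM and 292.8 to 315.5 CPM in that order. The part of these shifts was not tested. The ribosomal locus transcript took 741.4 to 3245.6 CPM at 36 h and 8113.9 to 26033.7 CPM at 18 h. Without the libraries rich in it, which leaves 1 control library at 18 h, the members' median was -0.20.

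All 12 members of the small subunit and 40S group and all 8 of the 60S group were lower at 36 h, with medians of -0.24 and -0.23. The smallest falls among them were those of Utp15 (-0.13 ± 0.03), Bop1 (-0.14 ± 0.04) and Ddx21 (-0.15 ± 0.03). None of the 3 box H/ACA genes passed the test. Nhp2 had 158.9, 151.6 and 154.7 CPM at 36 h, against 156.2, 161.7 and 156.3 CPM at 18 h, and the libraries of both times overlapped (-0.03 ± 0.04, adjusted p = 0.56). In the box C/D group, Fbl (-0.35 ± 0.04), Nop58 (-0.21 ± 0.03) and Nop56 (-0.16 ± 0.03) were lower, while Nolc1 was at 0.01 ± 0.03 (adjusted p = 0.91).

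The 2 members that were higher at 36 h were Npm1 and Tcof1. Npm1 had 2992, 3196 and 3009 CPM at 36 h, against 2696, 2731 and 2732 CPM at 18 h, without overlap (0.17 ± 0.04, adjusted p = 0.000228). Tcof1, which rose least at 18 h, was 0.10 ± 0.04 higher (adjusted p = 0.033). Ncl was at 0.06 ± 0.04 (adjusted p = 0.263), and Polr1a, Polr1c, Gar1 and Dkc1 did not pass the test either.

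Outside the 34, the same comparison gave 4 higher and 30 lower of 47 other small subunit factors, and 4 higher and 33 lower of 52 other 60S factors. Of all tested genes 25.6% were higher and 26.6% lower. In the RNA polymerase I machinery 2 were higher and 9 lower, with Rrn3, the initiation factor that recruits the polymerase, at 0.20 ± 0.04. Of the MYC targets outside ribosome assembly 9 were higher and 7 lower, near the shares of all tested genes, and their median was -0.01. In the MYC network Mxd4 fell further, to 17.11 ± 0.579 CPM at 36 h, against 39.63 ± 0.817 CPM at 18 h (SD, n = 3 each), and Mxd1, another MXD repressor, rose by 0.61 ± 0.04.

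**Figure D2:**
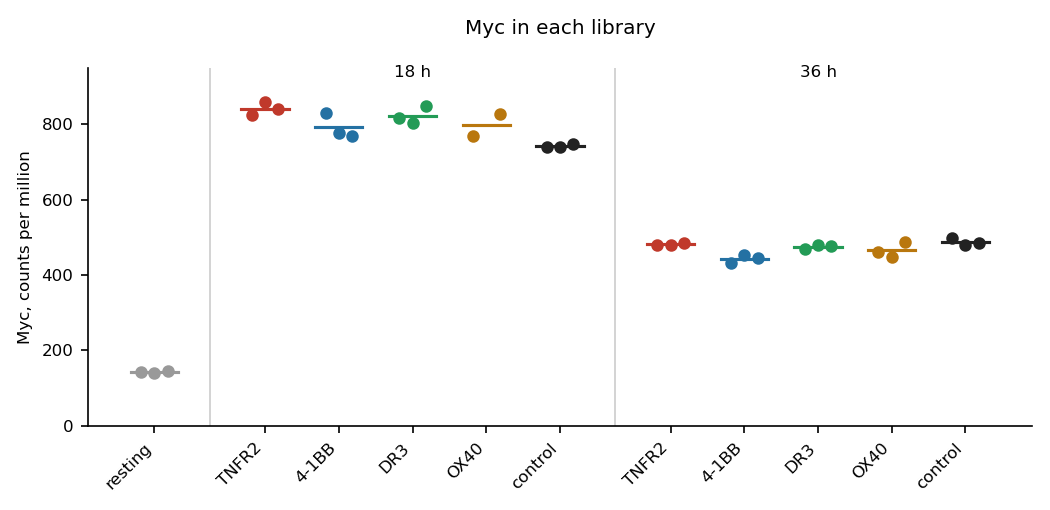
Myc in CPM in each of the 32 libraries (points) with the group mean (line): resting cells on the left, then the 18 h groups and the 36 h groups, each with the 4 agonists before the control. The 18 h agonist groups average 792.2 to 841.2, above the 18 h control at 742.3; the 36 h groups lie between 443.2 and 487.6, and resting cells at 142.5.

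The order of the 11 groups for Myc ran from the TNFR2 agonist at 18 h (841.2 ± 17.1 CPM) through the DR3 agonist (823.3 ± 23.7 CPM), the OX40 agonist (797.5 ± 41.6 CPM, n = 2) and the 4-1BB agonist (792.2 ± 33.9 CPM) to the 18 h control (742.3 ± 4.21 CPM). Neighbours among the 4 agonist groups overlapped, and the lowest 4-1BB library, at 768.9 CPM, was above the highest control library, at 746.9 CPM. Next came the 36 h control (487.6 ± 8.92 CPM), then the 36 h agonists TNFR2 (482.3 ± 3.6 CPM), DR3 (475.4 ± 4.86 CPM), OX40 (466.2 ± 21 CPM) and 4-1BB (443.2 ± 9.77 CPM), and last resting cells (142.5 ± 2.66 CPM; SD, n = 3 where not given). Among the 36 h groups, neighbours overlapped except TNFR2 with DR3, and the lowest OX40 library, at 448.1 CPM, lay within the 4-1BB range.

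At 18 h some members were a little higher still with each agonist than in controls. No member was called lower against the 18 h controls under any of the 4. Of all tested genes, 15.3% were called lower with TNFR2, 13.1% with 4-1BB, 9.94% with DR3 and 9.71% with OX40. The 4 comparisons share the 3 control libraries, so they are not independent of each other. The largest rise of any member was 1.22-fold. The median over the 34 members was 0.08 on the log2 scale for TNFR2, 0.07 for 4-1BB, 0.08 for DR3 and 0.11 for OX40; over all tested genes it lay between -0.01 and 0. Library by library, between 26 and 32 of the 34 members were above the mean of the 18 h controls, in all 11 agonist libraries. The 11 were set against the same mean of 3 controls, so they do not repeat the result independently. The share of all tested genes above that mean was not counted.

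With the TNFR2 agonist at 18 h, 15 of 34 members were called higher, against 15.8% of all tested genes. Myc had 825, 859.1 and 839.5 CPM with the agonist, against 738.7, 741.2 and 746.9 CPM in controls. All agonist libraries were above all controls (0.18 ± 0.03, adjusted p = 2.43e-05). Rrp9 moved most, with 164.8, 170.5 and 157.8 CPM with the agonist, against 132.2, 137.7 and 135.6 CPM in controls (0.28 ± 0.04, adjusted p = 8.02e-07). Nhp2 was 0.26 ± 0.04 higher and Polr1a 0.21 ± 0.04 higher (adjusted p = 1.5e-07 and 3.51e-05), both without overlap. The smallest rises called were those of Ltv1 (0.10 ± 0.04), Nop2 (0.11 ± 0.03) and Rrp12 (0.12 ± 0.04), with adjusted p of 0.0408, 0.00247 and 0.0172, all without overlap.

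With the 4-1BB antibody at 18 h, 11 members were called higher, against 12.7% of all tested genes. Polr1a led with 288.9, 284.4 and 298.2 CPM, against 250.2, 254.3 and 258.7 CPM in controls (0.19 ± 0.04, adjusted p = 0.000144). Gnl3, nucleostemin, had 300.1, 303.1 and 294 CPM, against 268.8, 268.4 and 265.3 CPM in controls (0.16 ± 0.04, adjusted p = 0.000711). Both were without overlap, as was Ltv1 (0.15 ± 0.04, adjusted p = 0.00242). Myc was 0.09 ± 0.03 higher (adjusted p = 0.031), a call that held in 6 of 15 alternative settings, with values between 0.06 and 0.12 and adjusted p between 0.00288 and 0.397. Left out singly, each of the 3 controls and replicate 1 of the 4-1BB libraries ended it. Nolc1 (0.09 ± 0.03, adjusted p = 0.0284) and Utp20 (0.11 ± 0.04, adjusted p = 0.0466) were, with Myc, the smallest rises called.

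With TL1A at 18 h, 8 members were called higher, against 9.66% of all tested genes. Nhp2 had 185.3, 177.3 and 196.2 CPM, against 156.2, 161.7 and 156.3 CPM in controls (0.24 ± 0.04, adjusted p = 2.52e-06). Rrp9 was 0.21 ± 0.04 and Myc 0.15 ± 0.03 higher (adjusted p = 0.000256 and 0.000701), all DR3 libraries being above all controls in the 3 genes. The smallest rises called were those of Nop58 (0.09 ± 0.03), Nop16 (0.11 ± 0.04) and Nolc1 (0.12 ± 0.03), with adjusted p of 0.0371, 0.0434 and 0.00439, and in Nop16 the libraries overlapped. Ncl and Bop1, both at 0.13 ± 0.04, were the other members called.

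With OX40L at 18 h, 17 members were called higher, against 9.32% of all tested genes. Ncl had 4278 and 4863 CPM, against 3753, 3917 and 3929 CPM in controls (0.24 ± 0.05, adjusted p = 6.34e-05). Gar1 (0.20 ± 0.05), Nop58 (0.19 ± 0.04), Polr1a (0.19 ± 0.04) and Utp20 (0.19 ± 0.05) followed. Replicate 2 was the higher of the pair in Ncl, in Npm1 (2866 and 3190 CPM in order of replicates) and in Ddx21 (1030 and 1131 CPM). Without replicate 2, 3 members were called, and without replicate 1, 16. Myc was 0.10 ± 0.04 higher (adjusted p = 0.0427), which held in 4 of 14 alternatives, with adjusted p between 0.012 and 0.624. Its value was 0.05 without OX40 replicate 2 and 0.15 without OX40 replicate 1. Left out singly, each of the 3 controls and replicate 2 of the OX40 libraries ended it. Nop2 (0.09 ± 0.03, adjusted p = 0.0407) and Ddx21 (0.11 ± 0.03, adjusted p = 0.0224) were the other smallest rises called.

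These counts rested in part on single control libraries. Without control replicate 1 at 18 h, 10 members were called for TNFR2, 5 for 4-1BB, 3 for DR3 and 9 for OX40, and without control replicate 2, 11 were called for OX40. The ribosomal locus transcript moved with these comparisons, being higher in 18 h controls as given above. With its level as a covariate, 10 members were called for OX40, where 15.4% of all tested genes were. Without the 6 libraries over 10000 CPM, 1 control library was left at 18 h, and it was assumed to vary like the other groups. Fewer members were then called, and for each agent their share was below that of all tested genes. The members' medians were then 0.07, 0.06, 0.06 and 0.09 for TNFR2, 4-1BB, DR3 and OX40. Those of all tested genes were -0.0065, 0.0012, -0.0038 and -0.008 in that order. Markers of other cells moved as well, and their part in the result was not tested. The 6 CD8 T and NK cell markers summed to 17.19 to 22.89 CPM over the 18 h agonist libraries and 12.31 to 12.53 CPM in 18 h controls, where 3 of the 6 were at 0. Of them Eomes was called higher with each agent (1.29 with TNFR2, 1.00 with 4-1BB, 1.00 with DR3 and 1.34 with OX40 on the log2 scale), and Cd8a and Cd8b1 were called with none.

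The 6 B cell markers summed to 321.6 to 422.5 CPM over the 18 h agonist libraries and 292.8 to 315.5 CPM in 18 h controls, and Ighm was the 1 marker of them called higher with each agent, by 0.32, 0.43, 0.10 and 0.17 in the same order. The erythroid markers summed to 0 to 0.2132 CPM over the agonist libraries and 0.4475 to 0.8137 CPM in controls, and the myeloid and dendritic markers to 0.1607 to 0.5182 CPM over the agonist libraries and 0.3255 to 1.231 CPM in controls. Of the Treg markers, Ctla4 was lower with each agent (-0.60, -0.54, -0.37 and -0.32), as was Cd3e (-0.31, -0.35, -0.16 and -0.23), and Foxp3 was higher with TNFR2, 4-1BB and OX40 (0.14, 0.14 and 0.15).

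**Figure D3:**
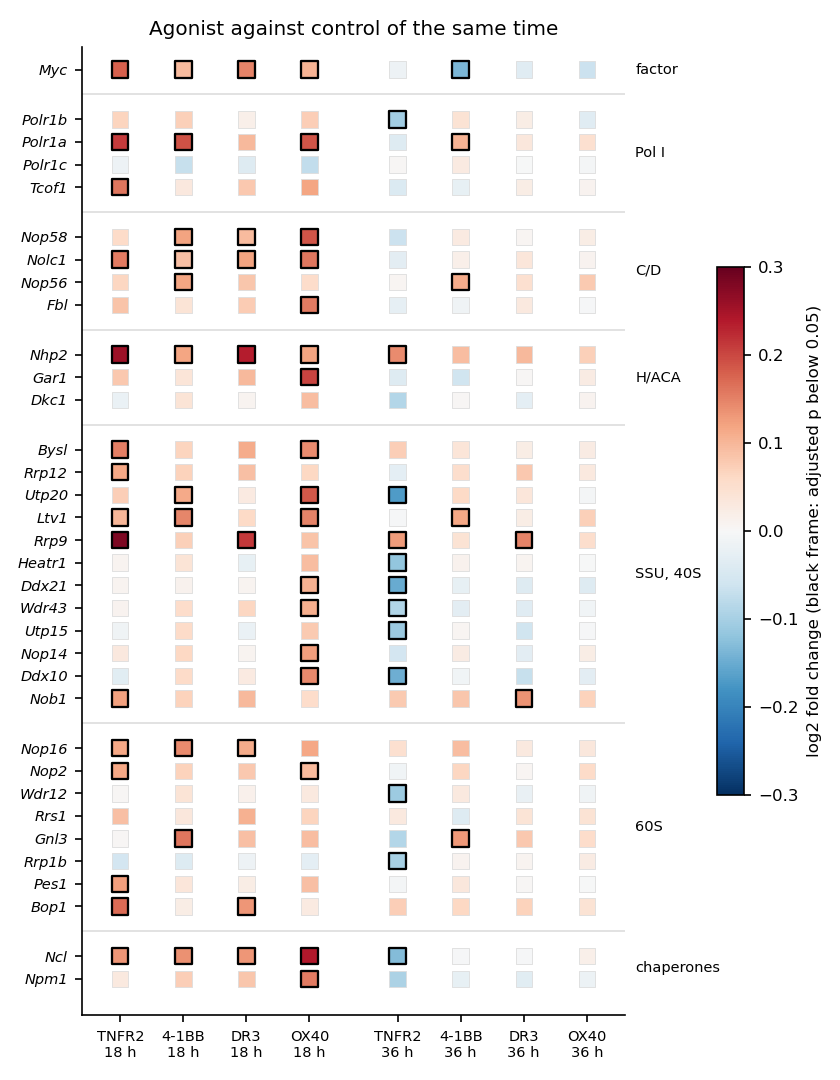
Log2 fold change of each member (rows, by role) under each agonist against the control of the same time (columns, 18 h left and 36 h right), in colour from -0.3 to 0.3, with a black frame where the adjusted p is below 0.05. The 18 h columns hold 8 to 17 framed cells each, all higher; at 36 h the TNFR2 column holds 10 lower and 2 higher, and the OX40 column none.

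At 36 h members were called in both directions, and the members' medians were -0.04 for TNFR2, 0.03 for 4-1BB, 0.02 for DR3 and 0.02 for OX40, against -0.0046 to 0.0024 over all tested genes. The OX40 median turned to -0.0065 with total counts, and the DR3 median was 0.0055 with no filter on low counts. With the TNFR2 agonist 10 members were lower and 2 higher, where 11.9% of all tested genes were lower and 13% higher. Ddx21 had 807.3, 798 and 828.6 CPM with the agonist, against 898.8, 914.4 and 891.4 CPM in controls. Its libraries did not overlap (-0.15 ± 0.03, adjusted p = 0.000169). Utp20, a processome component, was lowest at -0.17 ± 0.04 (adjusted p = 0.00299), with 248.2, 233.4 and 269.7 CPM against 286.2, 292.5 and 266.4 CPM in controls, so that 1 agonist library lay within the control range. Ddx10 (-0.15 ± 0.05) and Ncl (-0.13 ± 0.04) were lower without overlap.

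Nhp2 (0.14 ± 0.04) and Rrp9 (0.13 ± 0.04) were higher with the TNFR2 agonist at this time too (adjusted p = 0.00266 and 0.0295). Myc was at -0.02 ± 0.03 (adjusted p = 0.786). The count of 12 calls fell to 1 without TNFR2 replicate 2, to 6 without TNFR2 replicate 1 and to 7 without control replicate 1. It was 7 with the ribosomal locus transcript as a covariate, where 19.6% of all tested genes were called. Without the libraries rich in that transcript it was 5, where 18% of all tested genes were called.

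With the 4-1BB antibody at 36 h, 4 members were higher and 1 lower, where 10.9% of all tested genes were higher and 11.5% lower. The 1 lower member was Myc, with 432.8, 452.2 and 444.7 CPM, against 497.2, 479.6 and 485.8 CPM in controls, without overlap (-0.14 ± 0.03, adjusted p = 0.0016). That call held in all 15 alternatives, with adjusted p between 0.00105 and 0.0202. Gnl3 (0.13 ± 0.04), Ltv1 (0.12 ± 0.04), Nop56 (0.11 ± 0.03) and Polr1a (0.10 ± 0.04) were higher, the last with overlapping libraries. Without control replicate 3 or 4-1BB replicate 3 the count fell to 3.

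With TL1A at 36 h, Rrp9 (0.15 ± 0.04, adjusted p = 0.0164) and Nob1 (0.14 ± 0.04, adjusted p = 0.0253) were the 2 members called, both higher, where 6.97% of all tested genes were higher and 6.39% lower. The count was 0 without control replicate 2 or DR3 replicate 1, and 1 without control replicate 1 or DR3 replicate 2. With OX40L at 36 h edgeR called none of the 34, where 7.12% of all tested genes were higher and 6.21% lower. At an unadjusted p below 0.05 there was 1 member, and DESeq2 called 1. Myc was at -0.04 ± 0.03 with TL1A and -0.06 ± 0.03 with OX40L (adjusted p = 0.548 and 0.229). Marker levels differed at 36 h too, and their part was not tested. CD8 T and NK cell markers summed to 36.89 to 39.28 CPM with TNFR2 and 29.04 to 31.3 CPM with 4-1BB. They summed to 27.35 to 28.27 CPM with DR3, 33.35 to 37.45 CPM with OX40 and 34.67 to 35.92 CPM in controls. Treg markers summed to 4607 to 4862, 4621 to 4682, 4638 to 4714 and 4778 to 4968 CPM in that order of agents. In 36 h controls they summed to 4900 to 5039 CPM.

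Whether an agonist's effect differed between the times was tested directly, as its effect at 36 h minus that at 18 h; the 4 tests share the control libraries of both times. For TNFR2, 8 members had a lower effect at 36 h, where 3.01% of all tested genes did. Ncl differed most, at -0.26 ± 0.06 (adjusted p = 0.0021), with Polr1a at -0.25 ± 0.06 and Utp20 at -0.24 ± 0.06. Ncl had 4186, 4286 and 4235 CPM with the agonist at 18 h, against 3753, 3917 and 3929 CPM in the controls of that time. At 36 h it had 3736, 3569 and 3716 CPM with the agonist, against 3869, 4248 and 3935 CPM in controls, so the agonist libraries were above the controls at the first time and below them at the second.

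Myc had a lower effect at 36 h with each agent: -0.20 ± 0.05 for TNFR2, -0.23 ± 0.05 for 4-1BB, -0.19 ± 0.05 for DR3 and -0.17 ± 0.05 for OX40 (adjusted p = 0.0054, 0.000922, 0.0216 and 0.0473). It was the 1 member called for 4-1BB, where 2.03% of all tested genes had a lower effect at 36 h, and for DR3, where 1.1% did. For OX40, where 1.38% did, Ncl (-0.22 ± 0.06) and Nop58 (-0.17 ± 0.05) were called as well. The OX40 call for Myc held in 7 of 20 alternatives, with adjusted p between 0.00924 and 0.568; each of the 6 control libraries, 18 h OX40 replicate 2 and 36 h OX40 replicates 1 and 2, left out singly, ended it. Without the 6 libraries rich in the ribosomal locus transcript no member was called in any of the 4 tests, while the values for Myc were -0.20, -0.23, -0.18 and -0.13 in the order above. The TNFR2 count was 5 without 18 h TNFR2 replicate 2 and 4 without 36 h TNFR2 replicate 2. The DR3 call ended without 18 h control replicate 1 or 2, 18 h DR3 replicate 3, 36 h control replicate 1 or 36 h DR3 replicate 1. The OX40 count was 9 without 18 h OX40 replicate 1, and 0 without 18 h control replicate 1, 18 h OX40 replicate 2, 36 h control replicate 2 or 36 h OX40 replicate 2. It was 1 without 18 h control replicate 2 or 3, 36 h control replicate 1 or 36 h OX40 replicate 1 or 3.

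A joint test asked whether the 4 agonists differed among themselves. At 18 h it called 4 members, Rrp9, Nhp2, Bop1 and Gnl3 (adjusted p = 0.000671, 0.0053, 0.0127 and 0.0167), where 14.3% of all tested genes were called. Rrp9 averaged most with TNFR2 and least with 4-1BB: its 3 TNFR2 libraries, at 157.8 to 170.5 CPM, were above its 4-1BB libraries, at 138.2 to 145 CPM. Gnl3 went the other way, with 261.9 to 276.6 CPM under TNFR2 and 294 to 303.1 CPM under 4-1BB. At 36 h 9 members were called, where 9.06% of all tested genes were: Gnl3, Utp20, Ddx21, Polr1b, Rrp1b, Heatr1, Wdr12, Ncl and Utp15. Gnl3 was again separate, at 215.3 to 218.2 CPM under TNFR2 and 250 to 254.6 CPM under 4-1BB (adjusted p = 0.00024). Myc did not pass at 18 h (adjusted p = 0.177) or 36 h (adjusted p = 0.0508). The count at 18 h was 2 without TNFR2 replicate 2, 7 without TNFR2 replicate 3, 9 without DR3 replicate 3 and 14 without OX40 replicate 1. The count at 36 h was 2 without TNFR2 replicate 1 or 2, 5 without 4-1BB replicate 2 or 3 or DR3 replicate 2, and 4 without OX40 replicate 1.

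Among the genes of the MYC network, Mxd4 was lower with every agent at both times. It averaged 19.38 ± 1.34 CPM with the TNFR2 agonist at 18 h, against 39.63 ± 0.817 CPM in controls (SD, n = 3 each), a log2 fold change of -1.03 ± 0.06 (adjusted p = 2.36e-18). It was also lower with 4-1BB (-0.94 ± 0.06), DR3 (-0.85 ± 0.06) and OX40 (-0.93 ± 0.07), and at 36 h by -0.43 ± 0.08, -0.45 ± 0.07, -0.41 ± 0.07 and -0.36 ± 0.07 in the same order. Mxd1 was higher at 18 h, by 0.47 ± 0.04, 0.26 ± 0.04, 0.32 ± 0.04 and 0.24 ± 0.05. At 36 h it was higher with TNFR2 (0.48 ± 0.04), DR3 (0.11 ± 0.04) and OX40 (0.12 ± 0.04). With 4-1BB at 36 h it was not called (0.07 ± 0.04, adjusted p = 0.206). Max was lower with 4-1BB at 18 h (-0.19 ± 0.04), and at 36 h with TNFR2 (-0.18 ± 0.04), 4-1BB (-0.25 ± 0.04) and DR3 (-0.13 ± 0.04).

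**Figure D4:**
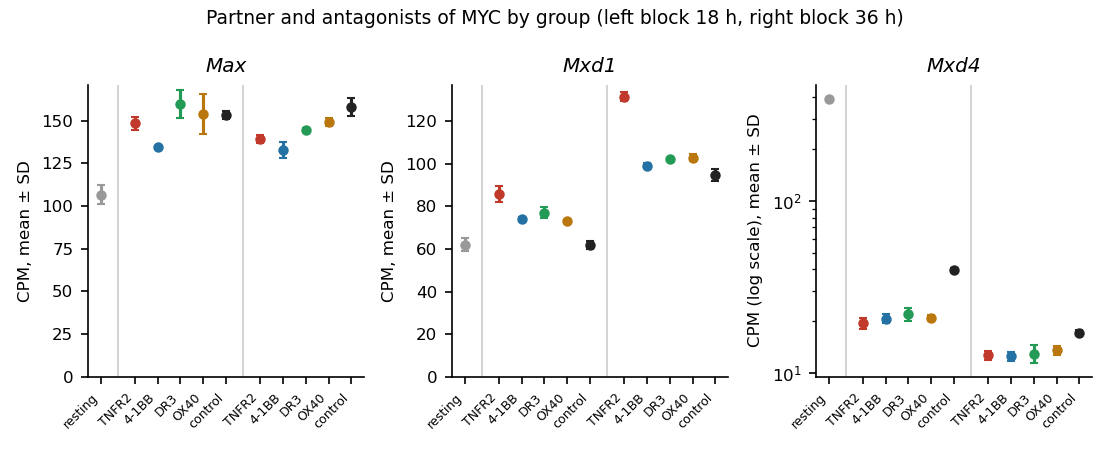
Mean CPM ± SD (3 libraries a group, 2 for OX40 at 18 h) of Max, the partner of MYC, and of the MXD family genes Mxd1 and Mxd4 in the 11 groups, with a log axis for Mxd4. Mxd4 is at 389.5 in resting cells, at 39.63 in 18 h controls and lower in every agonist group than in the control of its time; Mxd1 is highest with the TNFR2 agonist at 36 h.

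The other lists gave, for the TNFR2 agonist at 18 h, 13 higher and 2 lower of 47 small subunit factors and 13 higher and 0 lower of 52 60S factors, with Wdr18 (0.30 ± 0.05) and Eif6 (0.29 ± 0.05) leading the 60S factors; of all tested genes 15.8% were higher and 15.3% lower. At 36 h the counts for TNFR2 were 1 higher and 12 lower of the small subunit factors, and 5 higher and 7 lower of the 60S factors, where 13% of all tested genes were higher and 11.9% lower. Of the 30 MYC targets outside ribosome assembly, 18 were higher and 2 lower with TNFR2 at 18 h, 15 and 1 with 4-1BB, 14 and 1 with DR3, and 16 and 1 with OX40, where 15.8%, 12.7%, 9.66% and 9.32% of all tested genes were higher. At 36 h 10, 10, 6 and 7 of them were higher and 1, 1, 0 and 0 lower in the same order, where 13%, 10.9%, 6.97% and 7.12% of all tested genes were higher. Of these targets, Ccnd2, encoding cyclin D2, had the largest rise in the comparison of TNFR2 with controls at 18 h, with 2573 ± 87.9 CPM, against 1727 ± 9.41 CPM in controls (SD, n = 3 each; 0.58 ± 0.04, adjusted p = 2.78e-18).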

How the data were processed

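The authors deposited, for each of the 32 libraries, a table of expected counts and TPM for 54087 genes. Per the submitters' processing notes, FastQC, Trimmomatic, STAR 2.5.3a and RSEM 1.2.28 were used with mm10; no annotation release or strand setting is given there, and per the labels' protocols the RNA was extracted with a NucleoSpin RNA XS kit and amplified with a SMART-Seq v4 kit. Expected counts that the authors deposited were rounded to whole numbers before testing, and deposited TPM values were used only to set levels of different genes side by side. Reads of overlapping genes cannot be separated by strand: 15 members share some exon bases with another gene in GENCODE M21. The largest share was that of Bysl with Ccnd3, at 9.4% of the exon bases of Bysl. Expected counts were fractional, so that reads were split with another gene, for 1 member (Ncl), in 1 of the 32 libraries.

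All 32 libraries entered 1 fit of 11 group means in edgeR 4.0.16 (R 4.3.3), with the tool's own filter on low counts, which left 14313 genes, TMM factors (0.973 to 1.08), a robust quasi-likelihood test and Benjamini-Hochberg adjustment over all tested genes at 0.05. The common dispersion was 0.00162. SEs are the log2 fold change divided by the square root of its F. A difference between libraries of a group exceeded sampling noise in all 31 pairs (chi-square per degree of freedom 1.71 to 25.15, genes with at least 20 counts in the pair), so none was merged. CPM use library sizes multiplied by TMM factors. Members eligible for full statistics in a comparison were Myc, the 3 called members with the largest and the 3 with the smallest log2 fold change and the best expressed member of each role; some of these are given by value alone or not named, and some other members are named. From each other list the 2 called genes with the largest and the 2 with the smallest change were eligible, at 5 CPM or more in the higher group; a gene outside this rule was chosen after its values were seen. The members and lists were chosen with earlier results of these data known. Alternatives were upper-quartile factors and total counts, no filter and 10 CPM in 3 libraries, DESeq2 1.42.0, a replicate block, only the groups compared, a threshold of 0.01, the ribosomal locus transcript as a covariate or without its 6 richest libraries, and each library left out. The scripts were tested on simulated counts. Promoter windows are from RefSeq (GRCm38.p6).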

Additional observations from a re-analysis of the deposited data

Results flagged for a closer look

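For 13 values the effect of an agonist at 36 h differed from its effect at 18 h by the test of that difference (edgeR quasi-likelihood test, adjusted p below 0.05), and all 13 were lower at 36 h. For the TNFR2 agonist the differences in log2 fold change were -0.2607 for Ncl, -0.2483 for Polr1a, -0.2439 for Utp20, -0.2045 for Tcof1, -0.196 for Myc, -0.1875 for Nolc1, -0.1712 for Polr1b and -0.1595 for Ddx21. For the OX40 agonist they were -0.2247 for Ncl, -0.168 for Myc and -0.1656 for Nop58. Myc differed by -0.2312 for the 4-1BB agonist and by -0.1856 for the DR3 agonist. The control libraries of both times are shared by the 4 agonists. Of all tested genes, 3.01%, 2.03%, 1.1% and 1.38% were called with a lower effect at 36 h for TNFR2, 4-1BB, DR3 and OX40. For 4-1BB and for DR3 the call was 1 of 34 members. The level of the ribosomal locus transcript was 8113.9 to 26033.7 CPM in 18 h controls and 741.4 to 3245.6 CPM in 36 h controls, and its part in these differences was tested only as a covariate and by leaving out libraries. Fewer members were called for TNFR2 and for OX40 in both of these settings.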

How the results depend on the processing

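All 34 members stayed higher than in resting cells at 18 h and 36 h in every alternative, with member medians of 1.96 to 2.15 and 1.59 to 1.84, although upper-quartile factors moved the median of all genes by -0.15 and -0.20 and total counts by -0.10 and -0.12. Counts with single libraries left out were 34, 34 and 25 to 26 for the control comparisons (36 h against 18 h last); 10 to 17, 5 to 10, 3 to 10 and 3 to 16 for TNFR2, 4-1BB, DR3 and OX40 at 18 h; 1 to 11, 3 to 4, 0 to 3 and 0 to 0 at 36 h; 4 to 10, 1 to 1, 0 to 1 and 0 to 9 for the differences between times; and 2 to 14 and 2 to 11 for the joint tests at 18 h and 36 h. Where 1 library is left in a group, it is assumed to vary like the other groups. Without the 6 libraries rich in the ribosomal locus transcript the counts were 5, 3 and 1 for TNFR2, 4-1BB and DR3 at 36 h. Of all tested genes 18%, 19.6% and 9.5% were then called, a larger share than of the members for each agent. The joint tests then gave 2 and 2. That setting leaves 1 control library at 18 h, and fewer members were called for each agent at 18 h and for the differences. As a covariate the transcript gave 10 for OX40 at 18 h, 7 for TNFR2 at 36 h and 3 and 0 for the TNFR2 and OX40 differences. Of all tested genes 15.4%, 19.6%, 3.55% and 1.64% were then called, in that order. At an adjusted p below 0.01 the counts were 7, 4 and 9 for 4-1BB, DR3 and OX40 at 18 h, 3, 3 and 0 for TNFR2, 4-1BB and DR3 at 36 h, 5, 0 and 0 for the TNFR2, DR3 and OX40 differences, and 2 and 3 for the joint tests. For OX40 at 18 h, total counts and a fit of only the groups compared each gave 10. For the OX40 difference, total counts, no filter and the stricter filter each gave 5, upper-quartile factors 1, only the groups compared 0 and DESeq2 6. DESeq2 gave 1 for OX40 at 36 h. The joint test at 18 h gave 7 with no filter, 9 with the stricter filter, 1 with only the groups compared and 7 with DESeq2. With no filter the counts at 36 h were 2 for 4-1BB and 1 for DR3, where 10.9% and 6.79% of all genes were called. The share of all genes called also moved with the filter. For TNFR2 at 18 h it was 15% with no filter and 42.6% with the stricter filter. The sign of Myc with TNFR2 at 36 h, not called, turned to 5e-04 (adjusted p = 0.999) without control replicate 1, in a range of -0.0241 to 5e-04 with single libraries left out. Of 2728 values of called members under these alternatives, 2384 kept their call and 344 lost it. None was lost in the comparisons with resting cells, and most losses fell in comparisons with agonists. For OX40 at 18 h, 48 were kept and 37 lost with single libraries left out, and 107 kept and 46 lost in the other settings. Of 45 values of Myc where it was not called, 44 kept their sign, none was called and 1 reversed. The cause was not tested. A replicate block gave 34, 34, 27, 15, 10, 8, 18, 12, 5, 2, 0, 8, 1, 1, 2, 4 and 8 in the order of comparisons above. The main fit paired no samples. Deviations of same-numbered libraries correlated at -0.167 to 0.137, and in no comparison was every pair above 0.1. These correlations cannot decide whether same-numbered libraries shared a mouse or culture.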
